A study of Mus musculus with 12 samples.

Results

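Lysine crotonylation (Kcr) peaks found after learning, absent from the home cage list and placed at the ends of genes were examined in mouse dorsal hippocampus. Members were chosen by the positions of called peaks. A peak of the learning list on chromosomes 1 to 19 was taken if it overlapped no homecage peak by even 1 bp and overlapped a window of 1 kb on either side of the annotated start or 3′ end of a protein-coding gene. Either boundary of a gene is called a gene end below. Of 15844 learning peaks on these chromosomes, 3169 lay at a gene end and 986 of those overlapped no homecage peak. These 986 peaks, called learning-only gene-end peaks, touched 1124 of 20665 protein-coding genes.

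The series holds 12 libraries, of which 2 were analysed here, both ChIP-seq libraries, in which DNA bound to crotonylated protein was pulled down with a pan-Kcr antibody from PTM BIO and sequenced. The learning library came from C57BL/6J mice trained in the Spatial Object Recognition task, a test of memory for object locations, and the homecage library from C57BL/6J mice that stayed in their home cage. Fresh dorsal hippocampus was fixed with formaldehyde and its chromatin was sheared to 200 to 500 bp. Age, sex, the time from training to dissection and whether animals were pooled are not given in the sources used here, and no drug treatment is named for these libraries. With 1 library per condition no difference has a replicate check and no p-value is given. Intervals are exact 95% limits (Clopper-Pearson for shares, order statistics for medians) that cover counting error only, and neighbouring peaks and genes are not independent. The lists carry positions but no peak strength or read number, so depth is unknown, and "learning-only" means only that no homecage peak was called there. Chromatin was taken from whole tissue, in which a mark in fewer cells and a weaker mark in each cell cannot be told apart.

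Crotonylation attaches a short unsaturated acyl group to lysine, on histones among other proteins. Acetyltransferases such as Ep300 and Crebbp place it from crotonyl-CoA, class I histone deacetylases and sirtuins remove it, and proteins with YEATS or double PHD finger domains bind it. On chromatin it is known mainly from the starts of active genes and from enhancers, where it occurs beside histone acetylation. The pan-Kcr antibody does not tell histone sites apart.

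The promoter sequences under some of the widest learning-only peaks are printed below as examples, and do not stand for the members as a whole. Each is a RefSeq promoter of the GRCm38.p6 assembly, from 250 bases before to 50 bases after an annotated start, and is printed 5′ to 3′ on the strand of its gene. Capitals mark matches, on either strand, to GGGCGG (the SP/KLF box), CCGGAAG (ETS), CCAAT (NFY) or the TATA box, TATAAA. The searched motifs GCGCATGCG (NRF1), AAGATGGCG (YY1), TGACGTCA (CRE), CACGTG (E-box) and TGANTCA (AP-1) have no match in these windows. Rbsn (chr6:92214821-92215120, minus strand) carries the widest member. Elmo1 (chr13:20090257-20090556, plus strand) carries the widest member that lay within 100 bp of a homecage peak. Tti1 (chr2:158028385-158028684, minus strand) and Nprl2 (chr9:107541959-107542258, plus strand) stand for starts shared by a pair of divergent genes. Tmem138 (chr19:10577037-10577336, minus strand) belongs to a gene without a homecage peak in it or within 3 kb, and Trpm8 (chr1:88306485-88306784, plus strand) is the start poorest in CpG among them.
Rbsn: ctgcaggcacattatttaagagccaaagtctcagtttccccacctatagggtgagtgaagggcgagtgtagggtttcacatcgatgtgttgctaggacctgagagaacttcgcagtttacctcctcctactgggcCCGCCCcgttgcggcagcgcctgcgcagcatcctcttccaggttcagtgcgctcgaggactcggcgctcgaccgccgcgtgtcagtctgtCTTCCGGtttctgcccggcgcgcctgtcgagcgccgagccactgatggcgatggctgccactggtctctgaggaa
Elmo1: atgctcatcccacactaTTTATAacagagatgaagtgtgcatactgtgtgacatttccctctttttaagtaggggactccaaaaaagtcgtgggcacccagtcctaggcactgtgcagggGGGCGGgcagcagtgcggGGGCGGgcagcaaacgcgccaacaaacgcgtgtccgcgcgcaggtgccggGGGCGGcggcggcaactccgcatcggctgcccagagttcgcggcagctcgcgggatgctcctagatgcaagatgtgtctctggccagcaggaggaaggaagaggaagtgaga
Tti1: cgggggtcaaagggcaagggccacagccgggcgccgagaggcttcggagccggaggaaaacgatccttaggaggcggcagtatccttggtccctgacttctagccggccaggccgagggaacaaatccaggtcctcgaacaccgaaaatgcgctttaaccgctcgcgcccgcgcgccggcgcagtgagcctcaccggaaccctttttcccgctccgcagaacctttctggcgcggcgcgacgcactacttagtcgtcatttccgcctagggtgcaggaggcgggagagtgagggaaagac
Nprl2: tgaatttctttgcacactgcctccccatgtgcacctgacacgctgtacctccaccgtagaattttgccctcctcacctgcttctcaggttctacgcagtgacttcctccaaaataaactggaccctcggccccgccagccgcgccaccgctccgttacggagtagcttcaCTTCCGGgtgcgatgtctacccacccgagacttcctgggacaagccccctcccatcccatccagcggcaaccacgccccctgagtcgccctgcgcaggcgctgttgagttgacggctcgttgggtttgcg
Tmem138: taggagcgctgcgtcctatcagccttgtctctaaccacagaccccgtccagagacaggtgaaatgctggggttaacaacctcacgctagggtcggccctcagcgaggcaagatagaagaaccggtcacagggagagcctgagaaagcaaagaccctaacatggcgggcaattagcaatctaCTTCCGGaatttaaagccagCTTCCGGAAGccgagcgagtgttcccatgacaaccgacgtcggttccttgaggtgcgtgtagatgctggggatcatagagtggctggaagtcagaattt
Trpm8: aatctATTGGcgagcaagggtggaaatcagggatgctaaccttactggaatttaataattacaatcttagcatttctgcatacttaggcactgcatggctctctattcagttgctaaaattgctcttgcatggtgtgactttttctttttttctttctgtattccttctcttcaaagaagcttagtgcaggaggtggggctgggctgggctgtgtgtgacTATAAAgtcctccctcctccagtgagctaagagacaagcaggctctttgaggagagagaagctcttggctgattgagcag

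The printed starts differed in base composition. Tti1 had 64.0% G and C with 32 CpG dinucleotides, Nprl2 60.7% with 21, Rbsn 60.3% with 24, Elmo1 60.0% with 21 and Tmem138 54.0% with 16. Trpm8 had 44.3% with 1 CpG and both a CCAAT and a TATAAA match. A learning-only peak covered all 300 bases of each window except that of Elmo1, where it covered 287.

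In these lists a smaller share of learning peaks was learning-only at gene ends than elsewhere, a difference without a replicate check. The learning-only share was 31.1% at gene ends (986 of 3169, 95% interval 29.5 to 32.8%), 63.7% away from them (8071 of 12675, 62.8 to 64.5%) and 57.2% over all 15844 learning peaks. The homecage list was 20.8 times as long as the learning list, with 329508 peaks on chromosomes 1 to 19. Since the rule uses both lists, these shares describe how the members were reached. Of all protein-coding genes, 5.44% had a learning-only peak at an end and 11.5% had a learning peak that overlapped a homecage peak, called a shared peak below.

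The members were narrow. Their median width was 276.5 bp (263 to 287; quartiles 192 to 401; range 146 to 1239), and 77 of the 986 had the smallest width of 146 bp. Shared gene-end peaks had a median of 358 bp (345 to 369) and learning-only peaks away from gene ends one of 280 bp (276 to 285). Width bears on the rule, because a wider peak can meet another more easily. The learning-only share was 40.8% for gene-end peaks under 200 bp, 36.8% from 200 to under 300 bp, 33.6% from 300 to under 400 bp, 27.4% from 400 to under 600 bp and 10.8% at 600 bp and over. Away from gene ends the shares in the same classes were 73.1%, 68.1%, 65.3%, 60.0% and 25%. Within each width class the share was lower at gene ends than away from them.

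**Figure D1:**
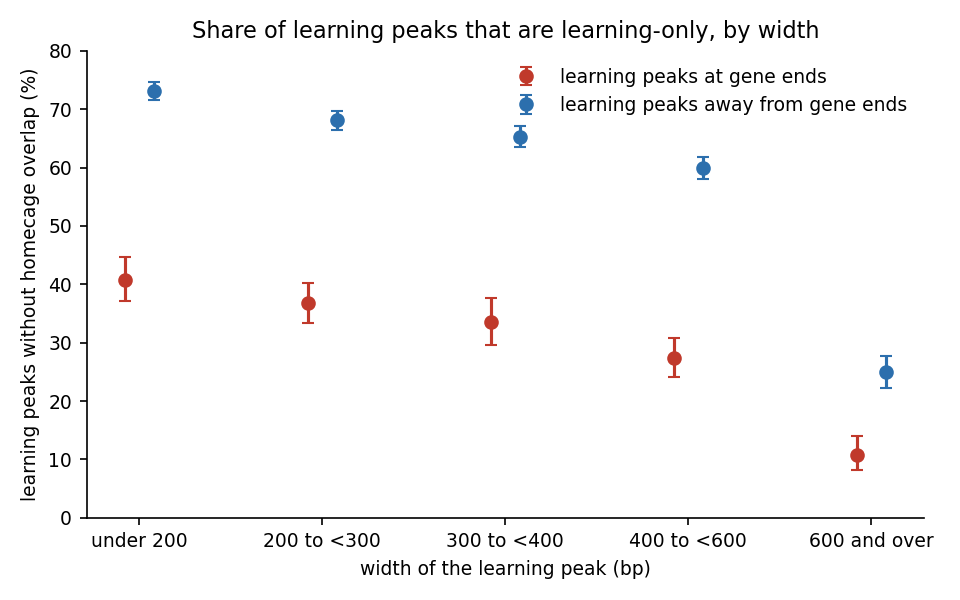
Share of learning peaks that overlap no homecage peak (vertical axis, percent) in 5 classes of peak width (horizontal axis, bp), for peaks at gene ends (red) and away from them (blue); bars are exact 95% intervals for counting error. The share falls with width in both sets, from 40.8% to 10.8% at gene ends and from 73.1% to 25% away from them.

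Members were seldom far from homecage signal. The median distance from a member to the nearest homecage peak, edge to edge, was 972 bp (841 to 1107; quartiles 328.5 to 3018; range 0 to 20086). Learning-only peaks away from gene ends had a median of 1545 bp (1493 to 1609). Of the members, 174 (17.6%, 15.3 to 20.2%) lay under 200 bp from a homecage peak, 325 (33.0%) at 200 to under 1000 bp, 354 (35.9%) at 1000 to under 5000 bp and 133 (13.5%, 11.4 to 15.8%) at 5000 bp or more. Away from gene ends the corresponding shares were 10.0%, 27.8%, 45.5% and 16.7%. A homecage peak lay within 1000 bp on both sides of 95 members (9.63%, 7.87 to 11.6%), against 7.22% (6.67 to 7.81%) of learning-only peaks away from gene ends. The nearest homecage peak had a median width of 375 bp.

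**Figure D2:**
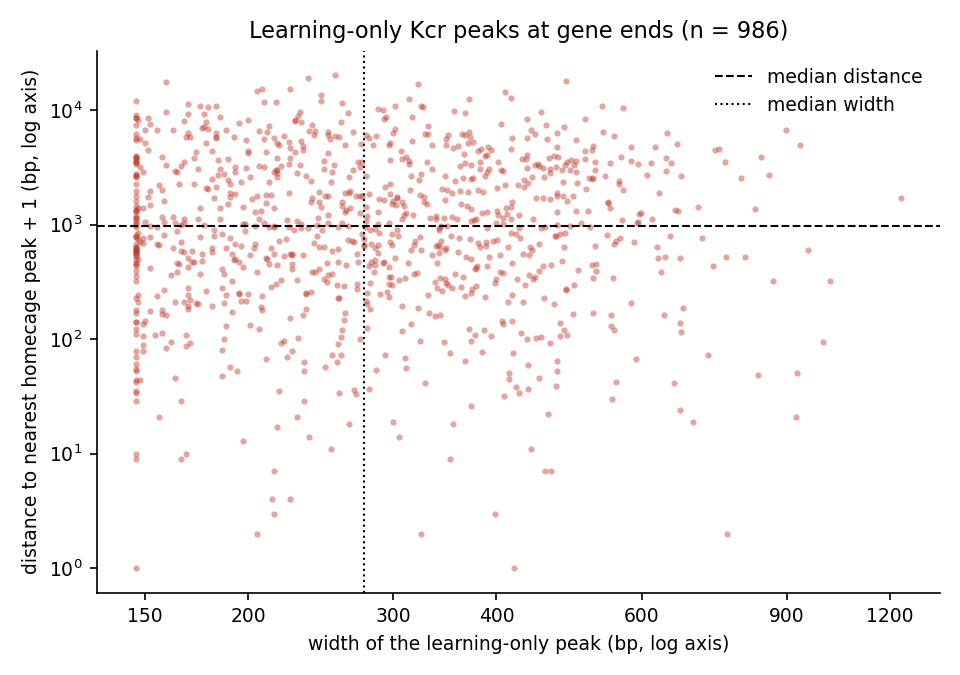
Each of the 986 learning-only gene-end peaks by its width (horizontal log axis, bp) and its distance to the nearest homecage peak plus 1 (vertical log axis, bp); lines mark the medians of 276.5 bp and 972 bp. Short and long distances, from 0 to 20086 bp in all, occur among narrow and wide peaks, and a column of 77 peaks stands at the smallest width.

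The surroundings of the members were as dense in homecage peaks as those of shared peaks at a large scale. The median number of homecage peaks within 100000 bp was 29 for members, for shared gene-end peaks and for learning-only peaks elsewhere. Within 10000 bp it was 3 for members, 3 for learning-only peaks away from gene ends and 4 for shared peaks. A shared peak overlaps at least 1 homecage peak by rule and that peak is counted, so its higher number is partly set by the rule. No homecage peak lay within 10000 bp of 29 members (2.94%, 1.98 to 4.2%), near the 3.73% (3.33 to 4.17%) of learning-only peaks away from gene ends.

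At the threshold of the rule, adjoining peaks fell on different sides. The members at Fbxo36, which encodes an F-box protein, and Mtx3, a metaxin gene, abutted a homecage peak with no base between them. Those at Ccdc171 and Cox18, the latter needed for assembly of cytochrome c oxidase, lay 1 bp away. Just outside the rule, learning peaks at Hmga1 and Scamp5 overlapped a homecage peak by 1 bp, and those at Mfsd4b4 and Tmem141 by 2 bp. In all, 60 members lay under 50 bp and 108 under 100 bp from a homecage peak, and 78 shared peaks overlapped one by no more than 50 bp.

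Most members were at gene starts. The strand of the gene, taken from the RefSeq promoter table, was known for at least some gene of 817 members, and 723 of these (88.5%, 86.1 to 90.6%) lay within 1 kb of a start. The remaining 94 (11.5%, 9.40 to 13.9%) lay at the 3′ end and at no start of a gene of known strand, and 4 of them also lay at a gene of unknown strand. Among 1745 shared peaks with known strand 1654 (94.8%, 93.6 to 95.8%) were at a start and 91 (5.21%, 4.22 to 6.36%) at a 3′ end only, of which 13 also lay at a gene of unknown strand. Members at the starts of 2 or more genes numbered 90 (11.0%), against 147 of the 1745 shared peaks (8.42%).

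Distances depended on where in the gene a member lay. Members at the start of 1 gene (633 peaks) had a median distance to a homecage peak of 841 bp (719 to 998). Those at the starts of 2 or more genes (90 peaks) had a median of 2247 bp (1326 to 2902), and those at a 3′ end only (94 peaks) one of 1351 bp (1070 to 2042), or 1544 bp (1082 to 2452) in the 90 with strand known for each gene. The median width of the 94 was 343.5 bp (311 to 372), and of those 90 it was 336.5 bp (299 to 371), against 277 bp (260 to 288) at the start of 1 gene.

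Around starts the members lay mostly just inside the gene. For 701 members the centre was within 1500 bp of a RefSeq start, at a median of 227.5 bp downstream, and 398 of them (56.8%, 53.0 to 60.5%) fell in the first 500 bp of the gene. Another 211 (30.1%, 26.7 to 33.6%) were upstream of the start. Of the shared peaks, 64.9% (62.5 to 67.2%) were in the first 500 bp and 20.5% (18.5 to 22.5%) upstream. Homecage peaks within 1500 bp of a start were spread more evenly, with 35.2% in the first 500 bp and 37.2% upstream. They were not restricted to gene ends, whereas members and shared peaks had to overlap a window of 1 kb there. Part of the more even spread therefore follows from the rule. Of 358 members near a start with a homecage peak within 1000 bp, that peak lay on the downstream side of 211 (58.9%, 53.6 to 64.1%) and on the upstream side of 147. This side was not computed for other learning peaks, so the share has no background. Homecage peaks near starts lay mostly downstream of the start itself, with 37.2% upstream.

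**Figure D3:**
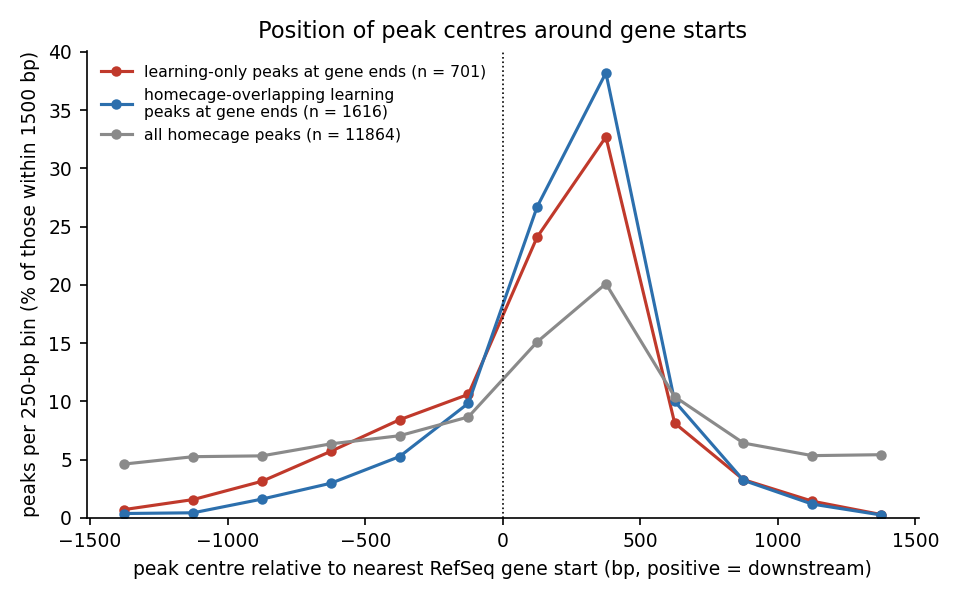
Position of peak centres relative to the nearest RefSeq gene start (horizontal axis, bp, positive into the gene), as percent of the peaks of each set within 1500 bp (vertical axis, per bin of 250 bp), for learning-only gene-end peaks (red, n = 701), shared gene-end peaks (blue, n = 1616) and all homecage peaks (grey, n = 11864). All 3 sets are highest from 250 to 500 bp inside the gene, where members reach 32.7%, shared peaks 38.2% and homecage peaks 20.1%. Homecage peaks were not restricted to gene-end windows, so their outer bins are fuller by construction.

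The widest member lay at the start of Rbsn. This gene encodes rabenosyn, a Rab effector of early endosomes. Its learning peak of 1239 bp (chr6:92213919-92215157) crossed the start, and the nearest homecage peak (chr6:92211809-92212208) lay 1710 bp away inside the gene, with no homecage peak at either end. Elmo1, which acts with Dock proteins in Rac activation, had a peak of 995 bp (chr13:20090270-20091264) across its start, 93 bp from a homecage peak of 152 bp (chr13:20091358-20091509). At Gnaq, the gene of a G protein alpha subunit, a peak of 954 bp (chr19:16133017-16133970) lay inside the gene, 596 bp from a homecage peak of 246 bp. Of these 3 genes, Elmo1 and Gnaq thus carried narrower homecage peaks beside the wide learning peak, and Rbsn did not.

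A pair of the widest members covered divergent promoters. The peak of 933 bp between Tti1, a partner of the phosphatidylinositol 3-kinase-related kinases, and Rprd1b, a regulator of the RNA polymerase II tail (chr2:158028168-158029100), crossed both starts and lay 4938 bp from a homecage peak. The peak of 897 bp between Cyb561d2, a cytochrome b561 family gene, and Nprl2, a subunit of the GATOR1 inhibitor of mTORC1 (chr9:107541619-107542515), lay 6652 bp from one. Neither Cyb561d2 nor Nprl2 had a homecage peak in the gene or within 3 kb of it.

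Other wide members sat among homecage peaks. Trpm8, the cold and menthol channel gene, had a peak of 924 bp (chr1:88306120-88307043) across its start, 20 bp from a homecage peak of 1399 bp, and 3 homecage peaks and 1 shared learning peak at its ends. At the 3′ end of Arhgef33, a guanine nucleotide exchange factor gene, a peak of 1015 bp (chr17:80433038-80434052) crossed the end 321 bp from a homecage peak. The provisional gene Gm52720 had a peak of 925 bp at its 3′ end, 50 bp from a homecage peak, and another of 408 bp at its start.

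**Figure D4:**
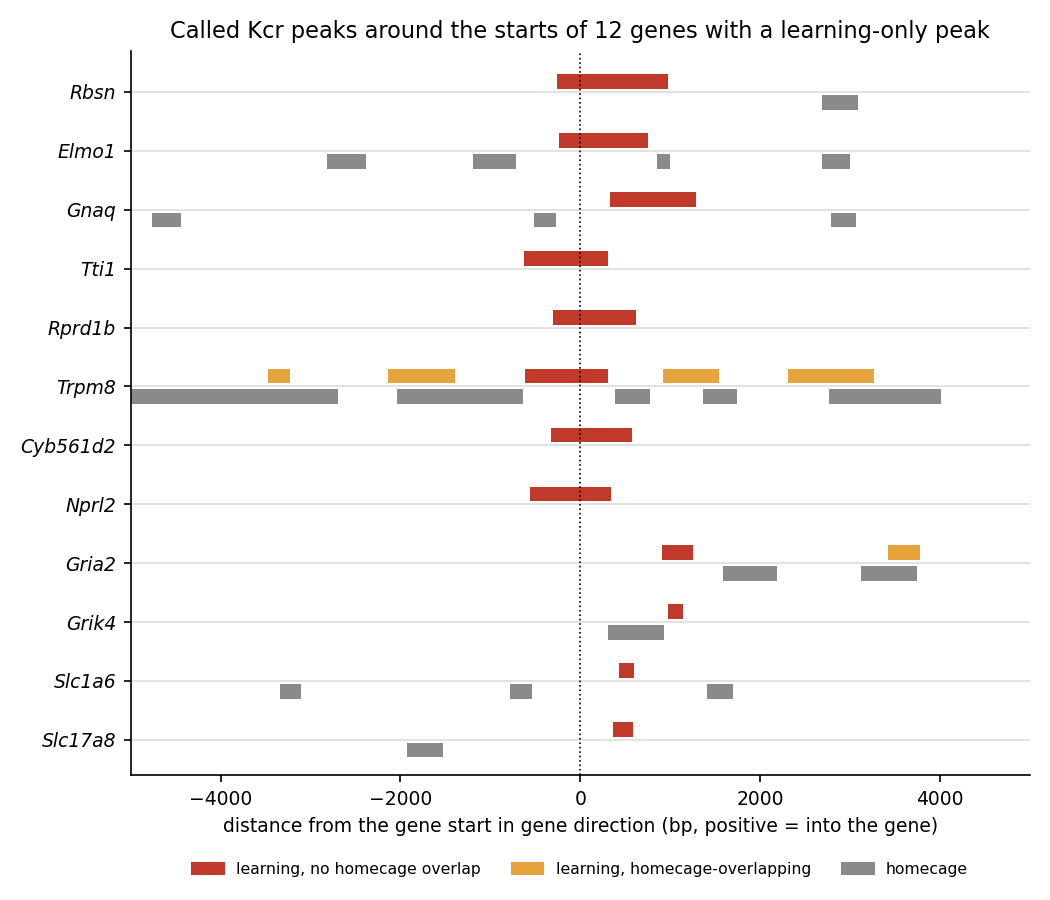
Called peaks within 5 kb of the start of 12 genes with a learning-only peak (horizontal axis, bp from the gene start in the direction of the gene): learning-only peaks in red, homecage-overlapping learning peaks in orange, homecage peaks in grey. Tti1, Rprd1b, Cyb561d2 and Nprl2 show no homecage peak in the window, and Trpm8 shows homecage peaks on both sides of its 924-bp learning-only peak.

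The 6 members farthest from homecage signal were 159 to 485 bp wide. Members at least 1 kb from a homecage peak had a median width of 283 bp, against 276.5 bp for all members. The peak at Nelfa, a subunit of the negative elongation factor that pauses RNA polymerase II, was 255 bp wide (chr5:33935900-33936154) and 20086 bp from the nearest homecage peak. That at Psmd6, a proteasome regulatory subunit, was 236 bp wide (chr14:14120592-14120827) and 19182 bp away. Mthfsd had a peak of 485 bp at 17968 bp, and the zinc finger gene Zfp658 one of 159 bp at 17516 bp. A peak of 321 bp at the facing 3′ ends of Cracd and Aasdh lay 17063 bp away, and 1 of 208 bp between Zfp661 and Mrps5, a mitochondrial ribosomal protein gene, 15380 bp away. Of these 6 peaks 5 were at gene starts.

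Most genes with a member had homecage signal elsewhere. A homecage peak lay at an end of 722 of the 1124 genes (64.2%, 61.4 to 67.0%). The other 402 genes (35.8%) had none at either end. The share was 64.3% for all protein-coding genes, the same within counting error, and 59.6% (58.8 to 60.3%) for genes with no learning peak at an end. These groups differ by construction, because a shared peak overlaps a homecage peak by rule. Genes with a shared peak are included in the 64.3% and left out of the 59.6%. Of the 1124 genes, 90 (8.01%) also had a shared learning peak, so the difference from 59.6% is partly set by the rule. In 51 genes (4.54%, 3.40 to 5.92%) there was no homecage peak in the gene or within 3 kb, against 8.52% (8.14 to 8.91%) of all protein-coding genes, or 1761. Absence of peaks over the whole gene selects short genes. The 51 had a median length of 4055 bp (480 to 35604, the longest being Ankrd50) and the 1761 one of 2939 bp. Among them were Tmem138, a cilium gene, with a peak of 737 bp (chr19:10576876-10577612) and Hps6, a subunit of the BLOC-2 complex of lysosome-related organelles, with a peak of 623 bp (chr19:46003315-46003937).

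A second member was found at 22 genes and more than 2 at none. At Zcchc2, Phyhd1, Trim44, Ran, Erc1 and Rab40b both peaks lay around the start. For Ran, the GTPase of nuclear transport, a peak of 519 bp lay upstream of the gene and another of 149 bp inside it, 948 and 88 bp from the same homecage peak. At Gcn1, a sensor of stalled ribosomes, a peak of 761 bp crossed the start 1 bp from a homecage peak, and another of 411 bp lay beyond the 3′ end, 1390 bp from one. At Samd4 and Bzw2 the members likewise lay at the opposite ends of the gene.

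Genes with a member were longer than genes at large but shorter than those with a shared peak. The median length was 22570 bp for genes with a member, 28179 bp for genes with a shared peak, 16102 bp for genes with neither and 17491 bp for all. By chromosome, the learning-only share of gene-end peaks ran from 24.7% on chromosome 6 (18.2 to 32.2%) to 38.4% on chromosome 7 (32.1 to 45.1%). Chromosome 11 held the most members, 97, at 7.58% of its genes.

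The genes were then read against 30 classes, each beside the 5.44% of all genes. Class members were listed with earlier results of these data known, the classes overlap, and the counts are descriptions. The share of genes with a learning-only peak was above 5.44% in 16 of the 30 classes. The 95% interval lay wholly above 5.44% in 6 of them and wholly below in 5. Members close to a homecage peak depend on where its edge was drawn. Most classes described with named genes are therefore also given for members at least 1 kb from any homecage peak. Such a member was present at 2.74% of all genes (566 of 20665).

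Genes of glutamate signalling, the main excitatory transmission of the hippocampus, had a member at 8 of 57 (14%, 6.26 to 25.8%), and 7 (12.3%) had a shared learning peak. A homecage peak lay at an end of 41 of the 57. Among receptor genes, the peak at Gria2, the AMPA receptor subunit that limits calcium entry, was 346 bp wide (chr3:80802976-80803321), lay inside the gene near its start and was 331 bp from a homecage peak. The obligatory NMDA receptor subunit gene Grin1 had a peak of 443 bp at its 3′ end (chr2:25291637-25292079), which also lay at Lrrc26 and was 1115 bp from a homecage peak. Grin3a, another NMDA receptor subunit gene, had 1 of 235 bp at 253 bp.

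The kainate receptor genes Grik4 and Grik5 had peaks of 163 and 407 bp, 45 and 2923 bp from a homecage peak. Among transporters, Slc17a8, which fills vesicles with glutamate, had a peak of 224 bp inside its start (chr10:89620661-89620884) at 1891 bp, and Slc1a6, which clears glutamate, 1 of 158 bp at 813 bp. The 8 peaks had a median width of 229.5 bp and a median distance of 572 bp. A member at least 1 kb from homecage signal was present at 3 of the 57 genes (5.26%, 1.10 to 14.6%), Grin1, Grik5 and Slc17a8. That interval includes the 2.74% of all genes.

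Among 27 genes of GABA signalling, the main inhibitory transmission, 2 (7.41%, 0.910 to 24.3%) had a member. Gabrr2, a GABA receptor subunit gene, had a peak of 458 bp at 943 bp from a homecage peak. A member at least 1 kb away was present at 1 of the 27 (3.70%, 0.0937 to 19%). Of 47 genes induced by neuronal activity, 4 (8.51%, 2.37 to 20.4%) had a member and 11 (23.4%) a shared learning peak. The 4 were the transcription factor genes Junb, Nfil3 and Klf10 and the early response gene Ier3. Their peaks were 377, 394, 167 and 407 bp wide and lay 412, 106, 209 and 376 bp from a homecage peak, so none of the 47 had a member at least 1 kb away.

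Of 33 genes that write, remove, read or feed crotonylation 2 (6.06%, 0.743 to 20.2%) had a member, near the 5.44% of all genes, and 10 (30.3%, 15.6 to 48.7%) had a shared learning peak, against 11.5%. None had a member at least 1 kb from homecage signal. The member at Crebbp, the CBP acyltransferase gene, was 865 bp wide, inside the gene at its start (chr16:4213036-4213900), and 324 bp from a homecage peak. At Dpf1, which encodes a protein with a double PHD finger, a peak of 208 bp lay inside the 3′ end at 179 bp. The wider class of chromatin genes, which overlaps this list, had a member at 7 of 84 (8.33%, 3.42 to 16.4%) and a shared peak at 33 (39.3%, 28.8 to 50.5%). All 7 chromatin members, at Kdm2b, Smarcad1, Kdm3a, Smarca5, Setd3, Kmt2d and Chd1, lay 43 to 697 bp from a homecage peak.

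Genes of basic cell functions were among the classes with the highest shares. Of 28 housekeeping genes 6 (21.4%, 8.30 to 41.0%) had a member, and 6 had a shared peak. A member at least 1 kb from a homecage peak was left at 2 of the 28 (7.14%, 0.877 to 23.5%), an interval that includes the 2.74% of all genes. Among the 6 were the glycolytic Eno1, the lysosomal Gusb, the translation factors Eef1a1 and Eef2 and the chaperone Hsp90ab1. Eno1 had a peak of 523 bp across its start, 341 bp from a homecage peak, and Gusb 1 of 369 bp at 5168 bp. Genes with proteasome symbols had a member at 7 of 50 (14%, 5.82 to 26.7%), and those not subunits of the particle were Psme3ip1 and Psmc3ip. Psmc4 had the widest, 856 bp (chr7:28050726-28051581), upstream of the gene and 2717 bp from a homecage peak. A member at least 1 kb away was present at 5 of the 50 (10.0%, 3.33 to 21.8%).

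Mitochondrial genes had shares above 5.44%, with intervals that include that value. Of 78 mitochondrial ribosomal protein genes 9 (11.5%, 5.41 to 20.8%) had a member, at a median of 2851 bp from a homecage peak, and 7 (8.97%, 3.68 to 17.6%) had one at least 1 kb away. Mrpl37 had the widest, 527 bp at 3532 bp, and Mrps9 a peak of 225 bp at 15335 bp. Of 85 genes of oxidative phosphorylation 9 (10.6%, 4.96 to 19.2%) had a member, among them Ndufa9 at 9369 bp and Cox5b at 6629 bp. A member at least 1 kb away was present at 6 of the 85 (7.06%, 2.63 to 14.7%), an interval that includes the 2.74% of all genes. Cytosolic ribosomal protein genes, with 4 of 77 (5.19%), were near the share of all genes.

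RNA splicing and helicase genes had a member at 13 of 116 (11.2%, 6.10 to 18.4%), with Hnrnph3 (556 bp), Ddx55 (460 bp) and Sf3a2 (414 bp) the widest. A member at least 1 kb from homecage signal was present at 5 of the 116 (4.31%, 1.41 to 9.77%), an interval that includes the 2.74% of all genes. C2H2 zinc finger genes, a large family of mostly repressive transcription factors, had a member at 39 of 455 (8.57%, 6.17 to 11.5%) and a shared peak at 82 (18%). One of the 39, Zbtb8os, is named after its neighbour and encodes no zinc finger. These members lay at a median of 1931 bp from a homecage peak, and 24 genes (5.27%, 3.41 to 7.75%) had one at least 1 kb away. Zfp689 (616 bp), Zfp948 (565 bp) and Zfp456 (518 bp) had the widest. The 39 genes were spread over 10 chromosomes, with 8 on chromosome 4, 7 on chromosome 7 and 6 on chromosome 17, and clustered zinc finger genes can share sequence.

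**Figure D5:**
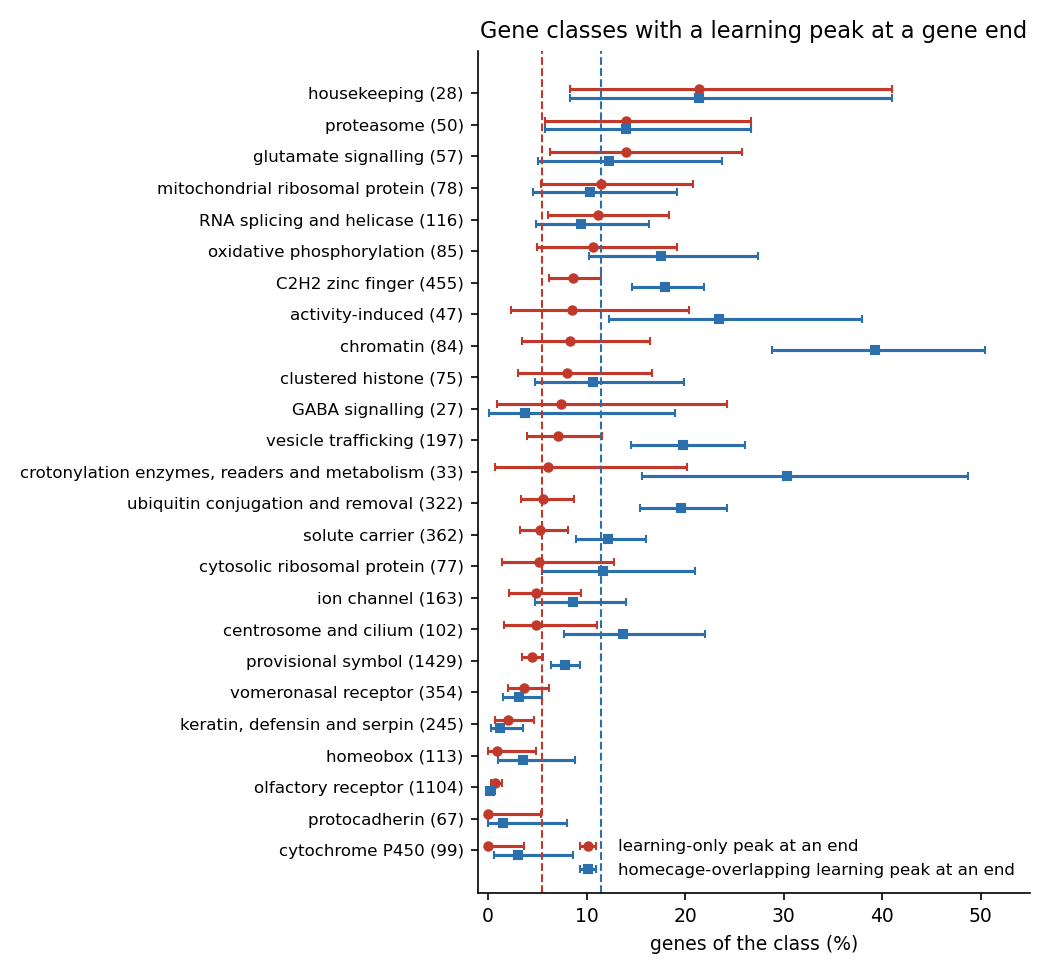
Percent of the genes of each class (horizontal axis; number of genes in parentheses) with a learning-only peak (red circles) or a homecage-overlapping learning peak (blue squares) at an end; bars are exact 95% intervals for counting error and dashed lines the shares of all genes, 5.44% and 11.5%. The shares are 21.4% and 21.4% in the housekeeping class, 14% and 12.3% in the glutamate class and 8.33% and 39.3% in the chromatin class. The small cell type marker lists are not drawn.

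Clustered histone genes, which lie in a dense array and include closely similar copies, had a member at 6 of 75 (8.0%, 2.99 to 16.6%). Those 6 genes rested on 4 peaks, all at least 1409 bp from a homecage peak, and the peak of 356 bp between H3c3 and H2bc3 was the widest. Vesicle trafficking (14 of 197, 7.11%), ubiquitin (18 of 322, 5.59%), solute carrier (19 of 362, 5.25%), ion channel (8 of 163, 4.91%) and centrosome and cilium genes (5 of 102, 4.90%) were near the share of all genes.

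The 5 classes whose interval lay below 5.44% were homeobox, olfactory receptor, protocadherin, cytochrome P450, and keratin, defensin and serpin genes. Homeobox genes had 1 of 113 (0.885%, 0.0224 to 4.83%), a peak of 165 bp at Pou3f3. Olfactory receptor genes had 8 of 1104 (0.725%, 0.313 to 1.42%), protocadherin genes 0 of 67 (0 to 5.36%) and cytochrome P450 genes 0 of 99 (0 to 3.66%). Keratin, defensin and serpin genes had 5 of 245 (2.04%, 0.666 to 4.7%), with the widest peak, 416 bp, at Krt77. Homecage peaks lay at an end of 37.2% of the homeobox, 47.0% of the olfactory receptor, 62.7% of the protocadherin, 59.6% of the P450 and 44.9% of the keratin, defensin and serpin genes, against 64.3% of all genes. Vomeronasal receptor genes had 13 of 354 (3.67%, 1.97 to 6.2%), 11 of them on chromosome 7. Their peaks were wide, with a median of 404.5 bp, and close to homecage peaks, with a median of 366.5 bp. The family includes closely related copies, and how reads that match several copies were placed is not given in the sources used here.

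The tissue label could be read against cell type markers only through peak positions. No member lay at any of 10 excitatory neuron, 10 interneuron or 10 microglia marker genes, which allows a share of up to 30.8% in each list, and homecage peaks lay at an end of 7, 4 and 8 of them. Oligodendrocyte markers had a member at 2 of 9 (22.2%, 2.81 to 60.0%), Mag and Cnp. Astrocyte markers had one at 3 of 10 (30.0%, 6.67 to 65.2%), Aldh1l1, Aldoc and Gfap. Only the astrocyte interval lay above the 5.44% of all genes, and it rested on 3 genes. Homecage peaks lay at an end of 7 of the 9 and 8 of the 10. The members at Cnp, Aldh1l1 and Aldoc were at the 3′ end of these genes. Those at Mag and Cnp lay 431 and 415 bp from a homecage peak, so no oligodendrocyte marker had a member at least 1 kb away. All 3 astrocyte members were at least 1 kb away. The peak at Gfap, the astrocyte intermediate filament gene, was 484 bp wide, crossed the start (chr11:102896860-102897343) and lay 3312 bp from a homecage peak. That at Aldoc was 200 bp wide, lay beyond the 3′ end at the neighbouring gene Pigs, and was 4385 bp away. No marker of the 5 lists had a shared learning peak.

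The promoters under members were richer in G and C than promoters at large and poorer than those under shared peaks. RefSeq promoters were available for 928 of the 1124 genes with a member and for 16457 of all 20665 genes, as 20085 windows of 300 bases. A member overlapped 239 windows of 207 genes. Their median G and C content was 62.3% (60.7 to 64.0%), against 69.0% (68.3 to 70.3%) for 674 windows under shared peaks, 61.3% (60.7 to 61.7%) for 3659 under a homecage peak alone, 55.3% for 15513 under no peak and 57.0% for all. The median number of CpG dinucleotides was 22, 30, 19, 11 and 14 in the same order. The observed over expected CpG ratio was 0.743 (0.714 to 0.798) under members and 0.852 (0.831 to 0.870) under shared peaks, against 0.586 over all promoters.

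Motifs were counted in the same windows. GGGCGG was found in 58.6% of the windows under members (52.0 to 64.9%), 74.8% under shared peaks, 55.5% under homecage peaks alone and 47.0% of all promoters. CCAAT was found in 32.6% (26.7 to 39.0%), 20.8%, 31.6% and 38.1%, and TATAAA in 8.37% (5.19 to 12.6%), 2.67%, 9.16% and 12.7%. For these 3 motifs the windows under members were nearer to promoters with a homecage peak alone than to those with a shared peak. Over all 1168 promoters of genes with a member at either end, GGGCGG was found in 58.9% and TATAAA in 9.85%. CCAAT was found there in 38.9% (36.1 to 41.7%), near the 38.1% of all promoters, so its share depended on the choice of promoters. The shares of CCGGAAG (14.6% under members, 11.9% of all), GCGCATGCG (2.93%, 2.37%), AAGATGGCG (3.77%, 1.83%), TGACGTCA (2.09%, 2.30%), CACGTG (6.28%, 7.89%) and TGANTCA (4.18%, 7.06%) each rested on 35 or fewer windows under members. The cited letters were searched on both strands, GGGCGG and CCGGAAG can match within longer G and C runs, and a match is not a bound site.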

How the data were processed

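Pan-Kcr ChIP-seq peak positions were analysed for 1 learning and 1 homecage library, assigned to groups by their titles. The authors deposited 1 list of peaks per library, with chromosome, start, end and name. Per the submitters' processing notes, Trimmomatic, BWA, MACS2 and the mm10 build were used, with no versions or roles given. Per the peak names in the deposited files, calling was of broad peaks with a p-value limit of 0.01. Whether the input libraries served as control is not given in the sources used here, and the input and single-nucleus libraries were not analysed here.

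Members and gene lists were chosen with earlier results of these data known. Starts were converted to 1-based positions. Gene positions came from a RefSeq table of GRCm38.p6 (the mm10 assembly), restricted to 20665 protein-coding genes on chromosomes 1 to 19. That table gives no strand, so strand and start sites came from the RefSeq promoter table, which has entries for 16457 of these genes. Overlap meant at least 1 bp. Distances are the number of bases between peak edges. Families defined by symbol (such as Zfp or Mrp) can take in a gene that only shares the prefix. Named were the genes of the 8 widest members, of the 6 farthest from homecage peaks, of the 4 members and 4 shared peaks nearest the threshold of the rule, the members at glutamate, GABA, activity-induced, crotonylation and marker genes, up to 3 genes of the widest members in each other class, genes with 2 members, and the 5 genes with the widest member among those without homecage peaks. A few further class genes (such as Mrps9, Cox5b and the chromatin genes) were named after their values were seen. The values of some genes that the rule names are not reported here. The interval functions were checked on simulated intervals. The software was Python 3.11.15 with pandas 2.3.3, numpy 2.4.6 and scipy 1.17.1, and figures were drawn with matplotlib 3.10.9.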

Additional observations from a re-analysis of the deposited data

Results flagged for a closer look

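Learning-only peaks were also present on sequences that the rule leaves out. On chromosomes X and Y, 47 of 158 learning peaks overlapped no homecage peak (29.7%, 22.7 to 37.5%). On 7 unplaced or unlocalized sequences 45 of 241 did (18.7%, 14 to 24.2%). These peaks are in the deposited lists but enter no comparison above.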

How the results depend on the processing

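No paired analysis was possible because a single antibody library represents each condition. The number of learning-only gene-end peaks stayed within 1.5 times of 986 with windows of 500 bp or 3 kb, with peak centres, with merged peaks and with a homecage peak within 200 bp counted as overlap. With a homecage peak within 1 kb counted as overlap, 487 peaks at 566 genes were left, and with learning peaks of at least 250 bp 567 peaks at 654 genes, both through fewer peaks by construction. The learning-only share of 31.1% became 35.08% with 3 kb windows, 25.62% with the 200 bp rule, 15.37% with the 1 kb rule, 44.75% when overlaps under 50% of the learning peak did not count, 26.99% with peaks of at least 250 bp and 28.95% with merged peaks. The median distance of 972 bp became 1393, 3057, 386 and 1128 bp under the 200 bp rule, the 1 kb rule, the 50% rule and merging. The median width of 276.5 bp became 307 bp under the 50% rule and 378 bp with the minimum width. The share at gene starts became 90.73% with 500 bp windows, 81.35% with 3 kb windows and 86.03% with the 1 kb rule. Of 60 class counts under the 3 kb windows and the 1 kb rule, 31 moved by more than 1.5 times. Chromatin went from 7 to 12 and 0, glutamate from 8 to 12 and 3. Under the same settings the number of all genes with a member went from 1124 to 1683 and 566. The unknown depth of both lists limits every absence of a peak.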
